A study of Mus musculus with 2 samples.

Results

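The BCL2 family, the caspases and the inhibitors around them decide whether a cell starts apoptosis, and 37 genes of this machinery are described here in mouse pancreatic islets. The members are a list of gene symbols, drawn up with earlier results of these data known, and the rule itself uses no measured value. They were found as the probe sets whose only symbol in the platform's probe table is one of these genes. Of the 37 genes 36 had such a probe set, 93 probe sets in all, out of 18193 genes and 34945 probe sets with a single symbol. No value is given for Ripk1.

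The transgenic sample was islet RNA of male mice aged 6 weeks with overexpression of miR-141 and miR-200c, and the control sample was islet RNA of male mice of the same age, labelled as C57Bl6 controls. The former is titled Ripmir. The labels do not spell out the promoter that drives the transgene, the founder line or its strain, nor how many mice were pooled. Islets were not treated between extraction and RNA isolation. There was 1 array per genotype (n = 1), so values carry no replicate error and differences could be neither tested nor checked in a second animal. Higher and lower therefore refer to this pair of arrays.

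In the intrinsic pathway, BH3-only proteins bind the pro-survival members of the BCL2 family or engage the multidomain members Bak and Bax. These, like their relative Bok, can permeabilise the outer mitochondrial membrane. Cytochrome c and Smac then leave the mitochondria, the initiator caspase-9 is activated and effector caspases follow. In the extrinsic pathway, death receptors recruit Fadd and Tradd to activate caspase-8, which Cflar restrains. Beta cells in diabetes are known to be lost partly through these routes, and the title of the series places it in the question of beta cell survival in type 2 diabetes.

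The overexpressed microRNAs are shown because they define the comparison. The labels name no arm, so both arms are printed, 5′ to 3′ as in RefSeq (GRCm38.p6), with the seed, bases 2 to 8, in capitals.
mmu-miR-141-3p: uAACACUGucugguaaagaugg
mmu-miR-200c-3p: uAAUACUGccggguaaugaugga
mmu-miR-141-5p: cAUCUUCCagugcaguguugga
mmu-miR-200c-5p: cGUCUUACccagcaguguuugg
The 3p arms lie on the minus strand at chr6:124717917-124717938 and chr6:124718324-124718346. Counted from the 5′ end, the seed of miR-200c-3p differs from that of miR-141-3p by the substitution C4U, so the seeds are not identical. The arrays read messenger RNA, and the microRNAs themselves were not measured here.

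Values are log2 RMA values, in which a step of 1 is a 2-fold step. A difference is the transgenic minus the control value. The floor was 5.76, the median of all values; probe sets below it on both arrays were set aside, and a gene was represented by its brightest probe set on average. Of the member probe sets 66 were kept and 27 lay below the floor on both arrays. Of the member genes 35 were kept; Casp12, a caspase of the endoplasmic reticulum, lay below the floor with both probe sets (5.12 and 4.93, and 4.28 and 4.05, transgenic first). Values of different probe sets are not comparable as levels, so each gene is compared only with itself.

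Beta cell markers were present in both samples: all 12 of those listed were kept, and Ins2 read 14.95 on the transgenic and 15.02 on the control array. Their median difference was 0.014, with 6 of the 12 higher, and they ran from -0.81 for Ucn3 to 0.49 for Abcc8. Some other marker lists leaned to the transgenic side. Of 16 kept macrophage and myeloid markers 15 were higher in the transgenic sample (median 0.83), with summed linear values of 12629 against 8127, while Cx3cr1, Itgam and Mrc1 lay below the floor. For stellate cells and fibroblasts 9 of 12 were higher (median 0.77, sums 9378 and 5594, with Col1a1 and Pdgfra below the floor). All 9 kept cell cycle markers were higher (median 1.26, sums 4202 and 1767, with Ccnb1 below the floor). The 24 poly-A spike control probe sets all read higher with the transgenic sample, with a median difference of 1.51. Many members are expressed in most cell types, and the part of these markers in the values below was not tested. In such tissue RNA more cells of a type and more RNA per cell cannot be told apart.

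No member differed 2-fold in either direction, while 3.02% of the 12143 kept genes did. The member that differed most was Dffb, the nuclease that cuts DNA in apoptosis, at 8.03 on the transgenic and 7.22 on the control array, or 1.75-fold higher. Only Dffb and Bcl2l2, a pro-survival protein, were at least 1.5-fold higher, 2 of 35 or 5.71% against 7.73% of all kept genes, and none was 1.5-fold lower against 3.14%. All 35 differences lay inside the central 95% of all kept genes, which ran from -0.63 to 1.0. They ranged from -0.35 for Dffa to 0.81 for Dffb.

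Direction was positive for 24 of the 35 members, or 68.6%, against 54.2% of all kept genes. The median difference was 0.11 over the members and 0.029 over all kept genes. When each kept probe set was counted by itself, 39 of 66 were positive, or 59.1%, against 51.8% of all 20548 kept probe sets. At least 1.5-fold higher were 2 of the 66, against 6.97%. The lean to the higher side was thus smaller when every probe set counted. It was also uneven along the scale. Of the 32 kept member probe sets with a mean at or above 7.81, the 75th percentile of all values, 25 were positive, against 51.9% of all such probe sets. Of the 30 with a mean between the floor and that value 12 were positive, against 51.5%. The other 4 had a mean below the floor.

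**Figure D1:**
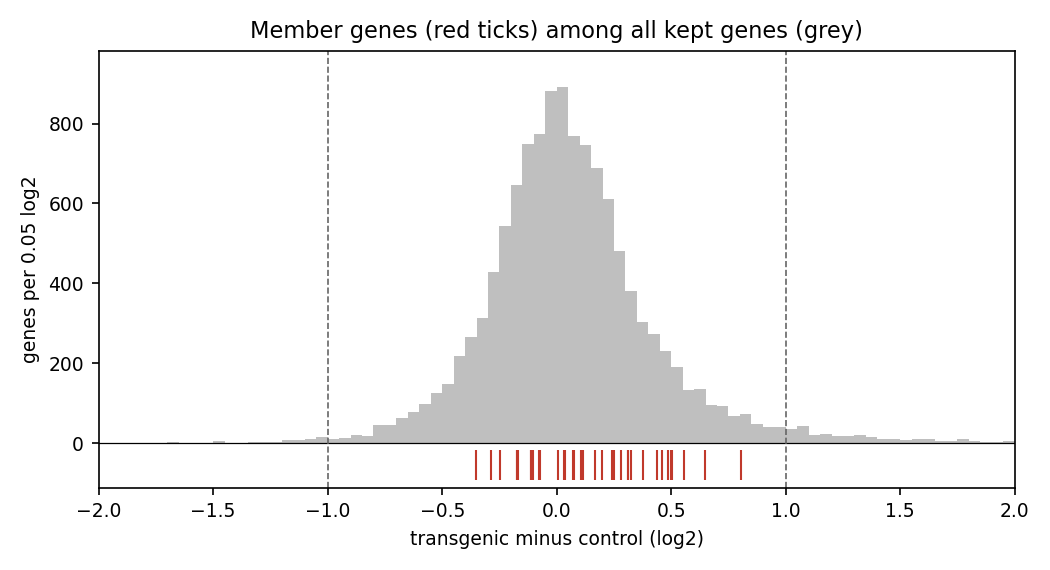
Histogram of the transgenic minus control log2 difference over the 12143 kept genes (grey bars, genes per bin of 0.05), with a red tick for each of the 35 kept members and dashed lines at the 2-fold rule. The axis is cut at -2 and 2. The ticks run from -0.35 to 0.81, inside both dashed lines.

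**Figure D2:**
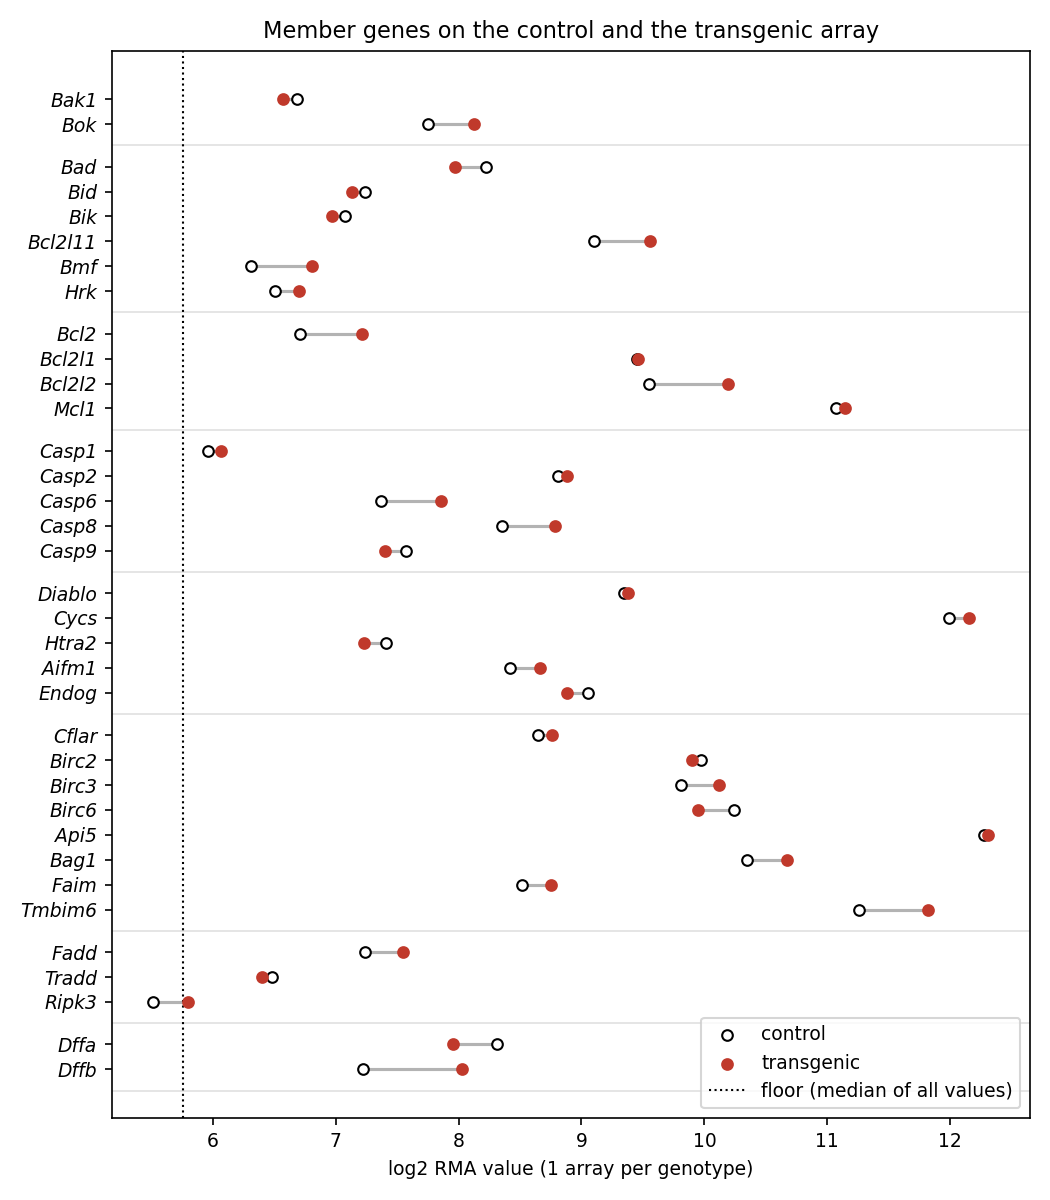
Log2 RMA value of each kept member gene on the control array (open circle) and on the transgenic array (filled circle), grouped by role, with a dotted line at the floor of 5.76. One point is 1 array. Dffb, Bcl2l2, Tmbim6 and Bcl2 have the widest gaps toward the transgenic side, and Dffa and Birc6 the widest toward the control side.

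The multidomain pro-apoptotic members did not move together. Bok, a BAX-like protein, read 8.13 on the transgenic and 7.75 on the control array, a difference of 0.38. Bak1, which forms pores in the mitochondrial membrane, read 6.57 and 6.68, a difference of -0.11. Its other probe set lay below the floor on both arrays. The third multidomain gene of this kind, Bax, has no value here.

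Among the 6 BH3-only genes 3 were higher and 3 lower in the transgenic sample, with a median of 0.047. Bmf, which is held on the actin cytoskeleton until released, stood furthest higher, at 6.81 on the transgenic and 6.31 on the control array, or 1.41-fold. That value rests on 1 kept probe set of the _s_at class, which can match more than 1 transcript. Bcl2l11, which encodes Bim and binds all pro-survival members, read 9.56 and 9.10, or 1.38-fold higher. All 4 kept probe sets of Bcl2l11 were higher, by 0.46, 0.25, 0.013 and 0.58 in order of their means. The probe set at 0.58 was the one nearest to the 1.5-fold rule without passing it, and its control value of 5.59 was below the floor.

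The remaining BH3-only genes differed less, and their probe sets did not all point one way. Bad, which is inactivated by phosphorylation, read 7.97 against 8.22 on the probe set with the highest mean, a difference of -0.25, and 7.24 against 7.13 on the other. Bik, of the endoplasmic reticulum, read 6.97 against 7.08, and 6.01 against 5.98 on a dimmer probe set. Hrk, first described in neurons, differed by 0.20 and -0.067 on its 2 probe sets. Bid, which caspase-8 cleaves to link the extrinsic to the intrinsic route, read 7.13 and 7.24, a difference of -0.10, with its other probe sets below the floor on both arrays.

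All 4 pro-survival genes of the BCL2 family had a positive difference by their highest-mean probe set, with a median of 0.29. For Bcl2l2 and Bcl2 this depended on the probe set. Bcl2l1 stood at -0.0082 after a second quantile normalization and at -0.29 with the mean over its 4 probe sets. Of these only 1 was kept, so that mean draws on probe sets below the floor on both arrays. Bcl2l2, which encodes Bcl-w, read 10.19 on the transgenic and 9.55 on the control array, or 1.57-fold higher. Its 3 other kept probe sets were lower in the transgenic sample, at 6.48 and 6.60, 5.82 and 5.92, and 5.50 and 5.79. With the median over its probe sets Bcl2l2 stood at -0.11. Bcl2 itself read 7.21 and 6.71, or 1.42-fold higher, and 5.78 and 6.03 on the other kept probe set, a difference of -0.25. The 3 probe sets of Bcl2 below the floor on both arrays had differences between 0.22 and 0.36.

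Mcl1, a short-lived protein that restrains Bak and Bim, was measured by 6 probe sets, and all were slightly higher in the transgenic sample. The highest-mean probe set of Mcl1 read 11.14 and 11.07, and the 6 differences ran from 0.031 to 0.31. Bcl2l1, which encodes Bcl-xL, read 9.46 and 9.45, a difference of 0.0063. Of all 35 members this was the difference nearest to 0. A Bcl2l1 probe set below the floor on both arrays (4.29 and 5.18) differed by -0.90, a value that the background limits.

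Of the 5 kept caspases 4 had a positive difference, with a median of 0.10. Casp6, an executioner that cleaves lamins, read 7.85 and 7.37, or 1.40-fold higher, and Casp8, the initiator below death receptors, read 8.79 and 8.35, or 1.35-fold higher. Casp8 had 1 probe set. The other probe set of Casp6 lay below the floor on both arrays, with a difference of -0.50, and with the mean over both Casp6 stood at -0.0071. Casp9, the initiator of the apoptosome, read 7.40 and 7.57, a difference of -0.17, but its second kept probe set read 6.63 and 6.42. Casp2, linked to DNA damage, read 8.88 and 8.81, and Casp1, the inflammasome caspase that myeloid cells express, read 6.07 and 5.96. Casp1 differed by 0.10, and the macrophage and myeloid markers had a median of 0.83. The Casp1 values lay near the floor, and RMA compresses differences near background. The part of myeloid cells in the Casp1 value was not tested.

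Proteins that leave the mitochondria differed little, with a median of 0.031 over 5 genes and a range from -0.17 to 0.25. Cycs, cytochrome c, was higher on all 3 kept probe sets, by 0.17, 0.13 and 0.21, with the first reading 12.16 and 11.99. Aifm1, a flavoprotein tied to caspase-independent death, read 8.67 and 8.42. Endog, a mitochondrial nuclease, was lower on both its probe sets (8.88 and 9.05, and 8.56 and 8.71), and so was Htra2, a serine protease, at 7.23 and 7.41, and 6.56 and 6.64. Diablo, which encodes Smac, an antagonist of inhibitors of apoptosis, differed by 0.031 on one probe set and by -0.092 on the other.

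Inhibitors outside the BCL2 family had a median of 0.18 over 8 genes, 6 of them higher in the transgenic sample. Tmbim6, which encodes Bax inhibitor 1 of the endoplasmic reticulum, read 11.82 and 11.26, or 1.47-fold higher, on its only probe set. Bag1, a partner of Hsp70 and Bcl2, read 10.67 and 10.35. Faim, which blocks Fas signalling, read 8.76 and 8.51. These 3 genes were each measured by a single probe set.

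The IAP genes, whose products are ubiquitin ligases that restrain caspases and signal to NF-kB, went different ways. Birc6, a giant IAP, was lower on both kept probe sets, at 9.95 and 10.24, and 6.43 and 6.61. Birc2 read 9.90 and 9.97, a difference of -0.075. Birc3 read 10.12 and 9.81, or 0.31 higher, on one probe set and 6.13 and 6.46, or -0.33, on the other. The IAP members were therefore lower or mixed, in contrast to the sign of the class median.

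Cflar, which encodes c-FLIP and blocks caspase-8 at death receptors, showed the reverse of its summary value on most probe sets. The highest-mean probe set read 8.76 and 8.64, a difference of 0.11. The 4 other kept probe sets were all lower in the transgenic sample, by -0.33, -0.14, -0.80 and -0.37 in order of their means. The one at -0.80 read 5.57 and 6.37 and was the only kept member probe set that was at least 1.5-fold lower, 1 of 66, where 4.15% of all kept probe sets were. Its transgenic value was below the floor, so the background limits that difference. Api5, an inhibitor of E2F1-induced death, read 12.31 and 12.27, with 0.23 on its second probe set and -0.32 on another, near the floor.

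Counted by probe set, the class of inhibitors outside the BCL2 family had 7 of 16 kept probe sets higher and a median of -0.11. Counted by gene it had the positive median given above. The other class whose median changed sign between these counts was that of proteins released from mitochondria, at 0.031 by gene and -0.022 by probe set.

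**Figure D3:**
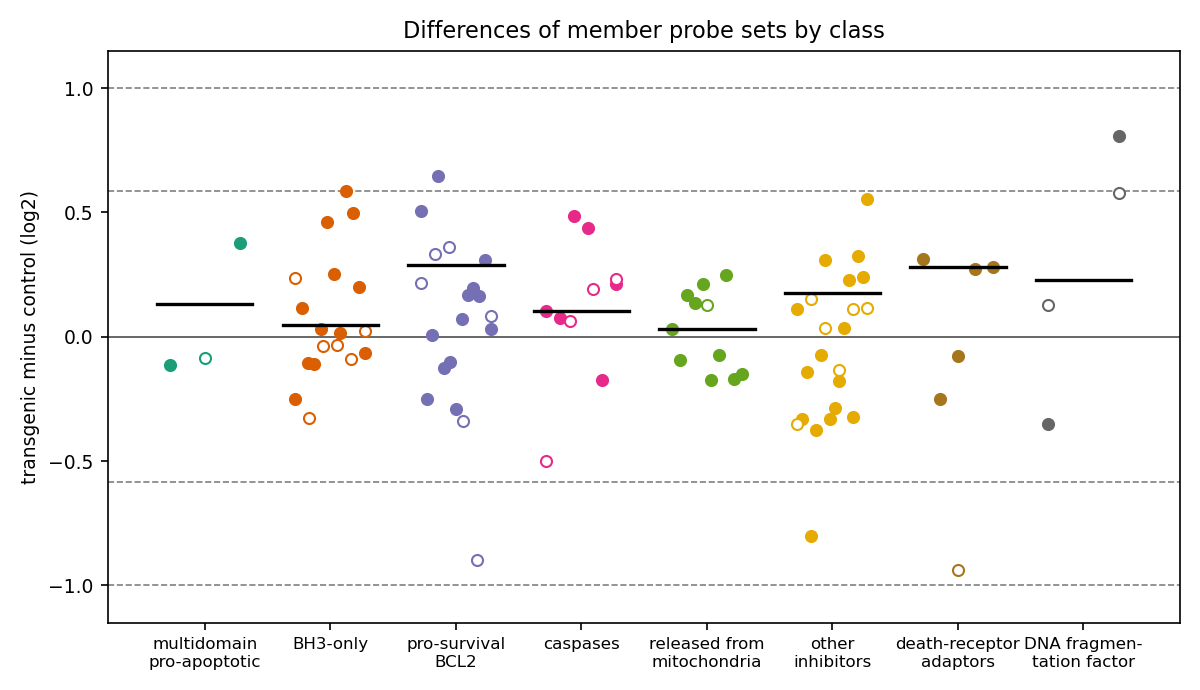
Transgenic minus control log2 difference of all 93 member probe sets by class, filled for the 66 kept and open for the 27 below the floor on both arrays. The black bar is the median over the kept genes of a class, and dashed lines mark 1.5-fold and 2-fold. Filled points past 1.5-fold are Dffb and Bcl2l2 above and a Cflar probe set below.

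The death-receptor adaptors Fadd and Tradd and the kinase Ripk3 had a median of 0.28. Fadd, which brings caspase-8 to the receptor, read 7.55 and 7.23, a difference of 0.31, but 6.09 and 6.34 on the second probe set. Tradd, the adaptor of the TNF receptor, read 6.40 and 6.48 on one probe set and 5.81 and 5.54 on another. One more Tradd probe set, below the floor on both arrays, differed by -0.94. Ripk3, a kinase of necroptosis, read 5.80 and 5.52. The control value of Ripk3 was below the floor, and the gene passed through its transgenic value alone. The class median of 0.28 was the difference of Ripk3 itself. With both values required at or above the floor Ripk3 drops out, and the class median was 0.12.

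The subunits of the DNA fragmentation factor differed in opposite directions. Dffb, the caspase-activated nuclease, stood at a difference of 0.81, above 95.9% of all kept genes. Its other probe set read 5.53 and 4.95, a difference of 0.58 in the same direction but below the floor on both arrays. Dffa, the inhibitor and chaperone of that nuclease, read 7.96 and 8.31, or 1.28-fold lower. Its other probe set, below the floor on both arrays, differed by 0.13, and with the mean over both Dffa stood at -0.11. By its highest-mean probe set Dffa was the member furthest on the lower side, above 9.84% of all kept genes.

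Set side by side, the median of the pro-survival BCL2 genes was 0.29, that of the BH3-only genes 0.047, that of the caspases 0.10 and that of the death-receptor adaptors and kinases 0.28. The 8 pro-apoptotic genes of the BCL2 family, multidomain and BH3-only together, had 4 positive and 4 negative differences. With 1 array per genotype these class medians could not be tested against each other. The order was not stable: with the mean over all probe sets of a gene, the pro-survival median was 0.033 and that of the adaptors 0.031. Bcl2 fell below the floor with that mean and is left out of the 0.033. The adaptor median of 0.28 was the value of Ripk3, kept through its transgenic value alone. It was 0.12 with both values required at or above the floor.

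**Figure D4:**
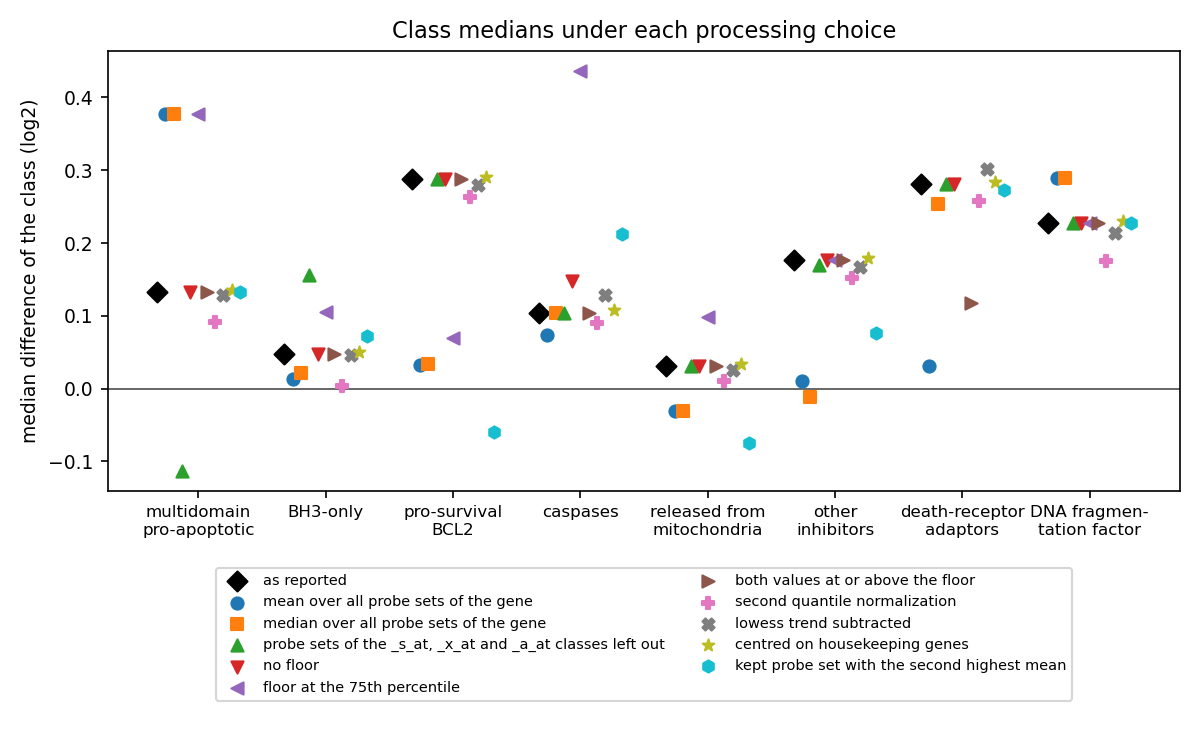
Median log2 difference (transgenic minus control) of each class as reported (black diamonds) and under each of 10 other choices of probe set, floor or scaling. The pro-survival median ran from -0.059 to 0.29, while choices of scaling alone moved the medians little. Under some choices Bcl2 falls below the floor and is left out of the pro-survival median.

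Disagreement between probe sets was common in this list. Of 18 members with at least 2 kept probe sets 12 had differences of both signs, against 41.4% of the 5180 genes on the arrays with at least 2 kept. Among genes with exactly 2 kept probe sets it was 9 of 12 members against 31.0% of 3158 genes. It was less frequent with a higher floor. At the floor of 7.81, 1 of the 6 members with at least 2 kept probe sets had both signs, against 30.8% of all such genes. At the floor of 5.76, the lowest and the highest difference of a gene were a median of 0.36 apart for the members and 0.28 for all such genes. Both signs with a range of at least 0.5 occurred in 6 members, namely Bcl2l2, Cflar, Bcl2, Birc3, Fadd and Api5, against 17.5% of all such genes. In all 6 the highest-mean probe set was positive and the median of the others was negative. Over all 18 members the highest-mean probe set was above the median of the others in 9, against 52.3% of all such genes.

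The 6 members whose kept probe sets all shared a sign were Bcl2l11, Mcl1 and Cycs on the higher side and Htra2, Endog and Birc6 on the lower side. Their widest range was that of Bcl2l11, at 0.57, and the narrowest that of Endog, at 0.022. The other 17 kept members, among them Dffb, Tmbim6, Bmf, Casp6 and Casp8, had 1 kept probe set each, so no such comparison exists for them. Such probe sets hybridise to the same RNA, can lie on different transcripts of the gene, and are not replicates.

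**Figure D5:**
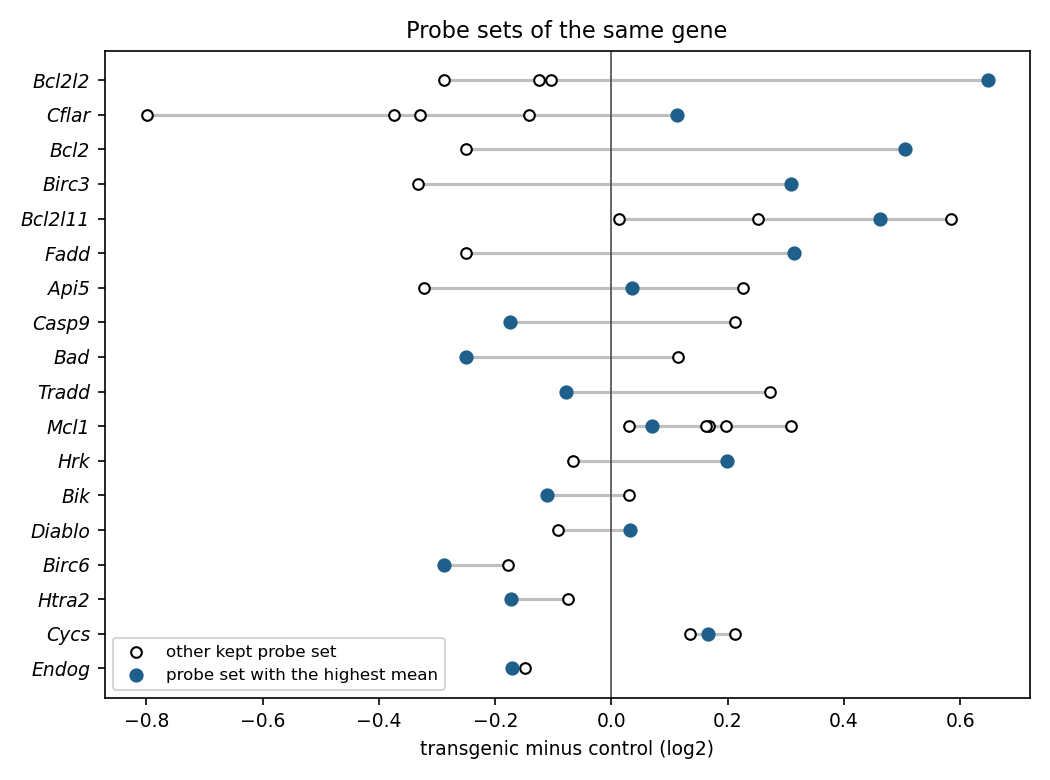
Transgenic minus control log2 difference of each kept probe set of the 18 members with at least 2, ordered by range. The filled point is the probe set with the highest mean, open points are the others, and the grey line spans the range. For Bcl2l2, Cflar, Bcl2, Birc3 and Fadd the filled point lies on the positive side and all open points on the negative side.

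Other genes of the pathway were taken from a list of 71, of which 63 had a probe set and 57 were kept. Of these 1 was 2-fold higher, against 2.51% of all kept genes, and none was 2-fold lower, against 0.511%. The one was Pmaip1, which encodes the BH3-only protein Noxa and is induced by p53, at 7.08 on the transgenic and 5.48 on the control array, 3.04-fold. Its control value was below the floor. The 57 had a median of 0.094, and 6 of them, or 10.5%, were at least 1.5-fold higher, against 7.73% of all kept genes. Among these were Bbc3, which encodes the BH3-only protein Puma (7.99 and 7.19), and Apaf1, the scaffold of the apoptosome (7.39 and 6.77).

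The other 3 past the 1.5-fold rule on the higher side were Pidd1, a p53-inducible partner of caspase-2 (0.79), Birc5, survivin, an IAP of dividing cells (0.75), and Parp1, a DNA damage sensor that caspases cleave (0.64). Parp1 was higher on all 3 kept probe sets, from 0.28 to 0.82. Bag5 was the one listed gene past 1.5-fold on the lower side, against 3.14% of all kept genes. Bag5 stood at -0.71, and its second probe set stood at 0.21. These 4 genes were named after their values were seen. Cell cycle markers, with a median of 1.26, were higher in the same sample as Birc5.

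Upstream and downstream of the members the remaining fixed genes differed little. Fas, a death receptor, read 6.63 and 6.46. Xiap, which inhibits caspases directly, stood at 0.25, with its kept probe sets from -0.35 to 0.25. Bbc3 and Pmaip1, from outside the member list, had larger differences than any of the 6 BH3-only members, of which the furthest was Bmf at 0.50. Not all such listed genes did: Bnip3, listed with the BCL2 family relatives, differed by 0.0012. Pmaip1 passed the floor through its transgenic value alone, and the lists were chosen with earlier results of these data known.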

How the data were processed

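Total RNA of islets was labelled with biotin and hybridised to Affymetrix arrays, 1 per genotype. The deposited values are log2 values per probe set, which the authors made with RMA in Affymetrix Expression Console, per the submitters' processing notes, with no version named. RMA corrects background, normalizes quantiles and summarises probes; it gives no detection call and compresses differences near background. Of the 45101 probe sets, 34945 carried 1 gene symbol in the platform annotation, 932 several and 9160 none, beside 64 control probe sets. Symbols were updated by Entrez Gene identifier for 34741.

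Differences, counts and medians were computed with Python 3.11.15, numpy 2.4.6 and pandas 2.3.3. The arithmetic was checked on simulated data, in which shifts without noise were added to the control values and read back. That check could not show how the size rules behave with array noise. The number of arrays limits the precision, and no test across samples exists. Every member was accounted for. Pathway genes were named past 2-fold, or if they were Bax, Bbc3, Pmaip1, Xiap, Apaf1 or Fas, and some genes of the list are not reported here. The members and all lists were chosen with earlier results of these data known. Alternatives were the mean or median over probe sets, leaving out _s_at, _x_at and _a_at probe sets, 3 other floors, a second quantile normalization, a lowess trend (statsmodels 0.14.6, span 0.3), centring on housekeeping genes and a 1.5-fold rule. The probe set with the second highest mean was added after seeing the data. Lists of lymphocyte, endothelial, acinar, ductal and other endocrine markers had medians of -0.14, 0.072, 0.13, 0.26 and 0.055, and housekeeping genes 0.090.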

Additional observations from a re-analysis of the deposited data

How the results depend on the processing

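Against 10 other choices of probe set, floor or scaling, no member passed 2-fold; at the 1.5-fold rule 2 did, Dffb and Bcl2l2. Dffb stayed between 0.69 and 0.81 on the log2 scale. With the mean over probe sets 1 of 31 members was 1.5-fold higher, against 5.92% of all kept genes. With the median it was 1 of 29, against 6.66%. With the probe set with the second highest mean (chosen after seeing the data) it was 1 of 35, against 8.07%. In that order Bcl2l2 stood at 0.033, -0.11 and -0.12. The pro-survival median of 0.29 was then 0.033, 0.033 and -0.059, and 0.070 with the floor at the 75th percentile. Bcl2 drops out with the mean, the median and that floor, and Bcl2l1 also with the median, so these medians cover fewer genes. The multidomain median of 0.13, over 2 genes, was 0.38 with the mean, the median or that floor, where Bak1 drops out, and -0.11 without the _s_at, _x_at and _a_at probe sets, where Bok drops out. The death-receptor adaptor median of 0.28 was 0.031 with the mean, and 0.12 with both values at or above the floor, where Ripk3 drops out. The caspase median of 0.10 was 0.44 with that floor, where Casp1 and Casp9 drop out. Members with both signs were 19 of 26 with no floor, against 53.3% of 9010 genes. With that floor they were 1 of 6, against 30.8%, where fewer probe sets remain. Of the pathway genes, 0 were 2-fold higher with that floor or with both values at the floor, and 1, Tmbim4, was 2-fold lower without those probe set classes or by the second probe set. The share of all kept genes past 2-fold was not computed under these choices. Of 322 gene values under these choices 30 changed sign, among 14 members, and 6 of 89 medians did. The 89 count the median of all members beside the class medians. Quantile, lowess and housekeeping scaling moved no class median by more than the 0.20 that separates a typical gene's 2 probe sets. Little movement was possible for some of these. RMA had already normalized quantiles, and the sorted values of the arrays differed by at most 0.10. Housekeeping centring shifts all differences alike, here that of Bok from 0.378 to 0.381. No paired analysis was possible because each group holds 1 array. The signal over background limits members near the floor, such as Ripk3 and Casp1.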
